A study of Mus musculus with 6 samples.

Results

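The genes described here encode the MHC class II presentation machinery: the chains H2-Aa, H2-Ab1 and H2-Eb1, the peptide exchange proteins H2-DMa and H2-DMb1, the invariant chain Cd74 and the transactivator Ciita. They were taken by name, after Ensembl identifiers were matched to mouse symbols, and make up 7 of the 37991 genes listed. All 7 were found. Total RNA was taken from tumours of a mouse line of cutaneous squamous cell carcinoma, which arises from epidermal keratinocytes. In 3 libraries the tumours were wild type for Kindlin-1 (WT), and in 3 they were Kindlin-1 knockouts (Null). Fermt1 encodes Kindlin-1, which binds the cytoplasmic tails of integrins. The labels give no strain, age, host, treatment or number of clones, so whether tumour cells and host cells differed in genotype is not known here.

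MHC class II molecules are pairs of an alpha and a beta chain that show peptides from taken-up proteins to CD4+ T cells. The invariant chain, Cd74, fills the peptide groove of new pairs and guides them to endosomes. There it is cut by cathepsins, and H2-DM, a pair of H2-DMa and H2-DMb1, exchanges the last invariant chain fragment for other peptides. Ciita binds no DNA itself. It is recruited by regulatory factor X and nuclear factor Y, which sit on the X and Y boxes in front of class II genes. Dendritic cells, macrophages and B cells carry class II constitutively, and interferon gamma induces Ciita in many other cells, keratinocytes included.

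The promoters of 3 members are shown because they hold the paired X-like and Y-like sequences through which Ciita is known to act on these genes together. Promoter windows (250 bases before to 50 after the start, RefSeq, build GRCm38.p6) were found for 4 members. H2-Ab1, Cd74 and Ciita had no window. Capitals mark an X-like match, CTNGNAAC, and a Y-like match, TGATTGG, in the 150 bases before the start, 5′ to 3′ along the gene.
H2-Aa: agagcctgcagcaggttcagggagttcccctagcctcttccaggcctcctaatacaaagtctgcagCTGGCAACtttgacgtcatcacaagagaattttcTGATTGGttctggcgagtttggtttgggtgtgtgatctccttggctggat
H2-Eb1: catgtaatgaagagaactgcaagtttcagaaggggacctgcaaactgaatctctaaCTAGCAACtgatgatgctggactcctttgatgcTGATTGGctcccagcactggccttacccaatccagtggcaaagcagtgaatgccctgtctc
H2-DMb1: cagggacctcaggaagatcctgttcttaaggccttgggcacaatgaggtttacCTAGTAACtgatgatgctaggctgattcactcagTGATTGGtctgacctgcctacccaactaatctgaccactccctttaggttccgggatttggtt

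These stretches lie at chr17:34287824-34287973 on the minus strand (H2-Aa), chr17:34305717-34305866 on the plus strand (H2-Eb1) and chr17:34153041-34153190 on the plus strand (H2-DMb1). The X-like match began 84, 94 and 97 bases before the start of H2-Aa, H2-Eb1 and H2-DMb1. The gap to the Y-like match was 26, 25 and 26 bases. The letters were chosen after these promoters were read, so their presence here is a description. Over all 32851 windows and both strands, CTNGNAAC occurred in 13.2%, TGATTGG in 7.82%, and the first followed by the second after 5 to 40 bases in 31 windows (0.0944%). Among the other class II loci, H2-Ob also held the pair, with a gap of 23 bases, while H2-Oa, H2-DMb2 and H2-Eb2 did not. Outside the class II loci, Rfx5, which encodes a subunit of regulatory factor X, held the pair too. Neither of the 2 windows of H2-DMa held the pair, and no match says only that these letters are not in those windows.

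Depth and origin differed between the libraries. Reads in genes ranged from 161711 (WT library 2) to 31487255 (Null library 2). By their titles, mouse number 238 is shared by WT libraries 1 and 2, and number 242 by Null libraries 2 and 3, although the file of Null library 3 is named with another number. Since no label states that each library is its own animal, the p-values reflect only how these 6 samples vary, and that variation may be technical. With all libraries thinned to equal depth, chi-square per degree of freedom was 1.43 and 1.72 within those pairs and 2.46 to 10.3 for all other pairs, with WT library 3 at 5.27 or more from every library. In replicate order, Fermt1, the targeted gene, had 16, 2 and 1040 reads in WT and 0, 2 and 2 reads in Null libraries. As CPM (depth-scaled counts with TMM factors) this was 12.5, 12.3 and 64.9 in WT and 0, 0.0634 and 0.3935 in Null libraries. Of the keratinocyte markers Krt5 had 0 to 5 reads a library and Krt6a 0 to 3. The 9 such markers summed to only 57.2 to 79.9 CPM in WT and 40.03 to 48.8 CPM in Null. Of the 5 tested keratinocyte markers 1 fell, Krt14, a basal keratin (log2 fold change -2.04, edgeR adjusted p = 0.01001), a call lost in limma-voom when mouse number entered as a random term (-1.505, adjusted p = 0.0502). Skeletal muscle markers summed to 518 to 1374 CPM in WT and 37.8 to 104 CPM in Null (8 of 8 fell: Acta1, Ckm, Des, Ttn, Myh4, Mylpf, Tnnt3 and Mb; log2 fold changes -4.58 to -2.14), and their part in the results below was not tested.

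No class II presentation gene passed the test between Null and WT tumours. Tested with edgeR (quasi-likelihood, Benjamini-Hochberg over 11887 genes), 0 of the 7 members were called, where 5.79% of all tested genes were (2.26% higher, 3.52% lower in Null). None of the 7 had an unadjusted p under 0.05, against 25.1% of all tested genes. DESeq2 also called 0 members, against 6.04% of all genes, and limma-voom with mouse number as a random effect called 0 against 8.08%. The log2 fold change, Null minus WT, was below 0 for 6 of 7 (49.3% of all tested genes), with a median of -0.36 against 0.01 over all tested genes. The intervals were wide: the 95% interval reached -1.66 for Cd74 and 0.77 for H2-DMa. A fall in class II RNA is thus not established. In tumour tissue, a change in the number of class II cells and one in class II RNA per cell cannot be told apart.

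H2-Aa, the alpha chain of the I-A molecule (ENSMUSG00000036594), stood at 514, 449 and 363 CPM in WT libraries 1 to 3 and at 259, 350 and 309 CPM in Null libraries 1 to 3. All WT values lay above all Null values, with 363 against 350 CPM at the boundary. This was the only one of the 7 members whose groups did not overlap; 30.5% of all tested genes did not overlap, 14.3% with Null lower. The means were 442 ± 75.4 and 306 ± 45.9 CPM (SD, n = 3). The log2 fold change was -0.52 (SE 0.26, 95% interval -1.09 to 0.05, edgeR adjusted p = 0.234).

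H2-Ab1, the beta chain that pairs with H2-Aa (ENSMUSG00000073421), stood at 504, 516 and 303 CPM in WT and at 258, 313 and 344 CPM in Null tumours. WT library 3 lay within the Null range here, and WT libraries 1 and 2 above it. This gave a log2 fold change of -0.51 (SE 0.29, 95% interval -1.13 to 0.10, edgeR adjusted p = 0.277). H2-Eb1, the beta chain of the I-E molecule (ENSMUSG00000060586), stood at 607, 491 and 264 CPM in WT and at 315, 361 and 378 CPM in Null tumours. For this gene WT library 3 was the lowest of all 6 libraries. Its log2 fold change was -0.36 (SE 0.31, 95% interval -1.04 to 0.32, edgeR adjusted p = 0.498), and -0.04 without WT library 1.

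Cd74 (ENSMUSG00000024610) had the highest level of the 7 genes and the widest spread. It stood at 1779, 1659 and 599 CPM in WT libraries 1 to 3 and at 473, 894 and 989 CPM in Null libraries 1 to 3. The 2 libraries of mouse number 238 were well above the other 4, which ran from 473 to 989 CPM with WT library 3 among the Null values. The group means were 1346 ± 649 and 785 ± 275 CPM (SD, n = 3), and the log2 fold change was -0.77 (SE 0.41, 95% interval -1.66 to 0.12, edgeR adjusted p = 0.261). Without WT library 3 Cd74 was called (-1.15, edgeR adjusted p = 0.0440), the 1 member of 7 in a fit that called 2.64% of all genes. The WT group of that fit was only the 2 libraries of mouse number 238. They may come from 1 animal, so this p-value may rest on technical variation. Without WT library 1 and without Null library 1 the log2 fold change of Cd74 was -0.48 and -0.50. Over the 16 alternatives for Cd74 the adjusted p ran from 0.0440 to 0.546.

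The H2-DM genes differed from the chains in that 1 of the 2 had a value above 0. H2-DMa (ENSMUSG00000037649) stood at 91.4, 86.0 and 46.5 CPM in WT and at 70.9, 76.3 and 84.8 CPM in Null tumours. Again WT library 3 was lowest and libraries 1 and 2 highest, so the WT values enclosed the Null values. The H2-DMa value of WT library 2 rests on 14 reads (95% exact Poisson interval 47.0 to 144 CPM), which includes every Null value. The log2 fold change was 0.14 (SE 0.29, 95% interval -0.49 to 0.77, edgeR adjusted p = 0.791) and turned to -0.225 without WT library 3. H2-DMb1 (ENSMUSG00000079547) stood at 44.5, 24.6 and 39.3 CPM in WT and at 29.5, 33.5 and 28.5 CPM in Null tumours, and here WT library 3 was above all Null libraries. Its WT library 2 value rests on 4 reads (95% exact Poisson interval 6.70 to 62.9 CPM, for counting error only). The log2 fold change was -0.36 (SE 0.27, 95% interval -0.93 to 0.22, edgeR adjusted p = 0.419). On the opposite strand 360 of the 3448 exon bases of H2-DMa overlap Brd2, and the use of strand in counting is not given in the sources used here.

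Ciita (ENSMUSG00000022504), the transactivator, was scarce. It had 21, 2 and 177 reads in WT libraries 1 to 3, against 7, 336 and 66 in the Null libraries. These stand for 16.4, 12.3 and 11.1 CPM in WT and 6.45, 10.7 and 13.0 CPM in Null tumours. The groups overlapped, and the intervals of WT library 2 (1.49 to 44.4 CPM) and Null library 1 (2.59 to 13.3 CPM) span most of the range. For Ciita the log2 fold change was -0.30 (SE 0.38, 95% interval -1.13 to 0.53, edgeR adjusted p = 0.719). It was -0.06 without WT library 1 and -0.17 without Null library 1. The unadjusted edgeR p of Ciita, 0.529, is larger than this SE implies, so the interval is too narrow. On the opposite strand 329 of its 9535 exon bases overlap Dexi.

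**Figure D1:**
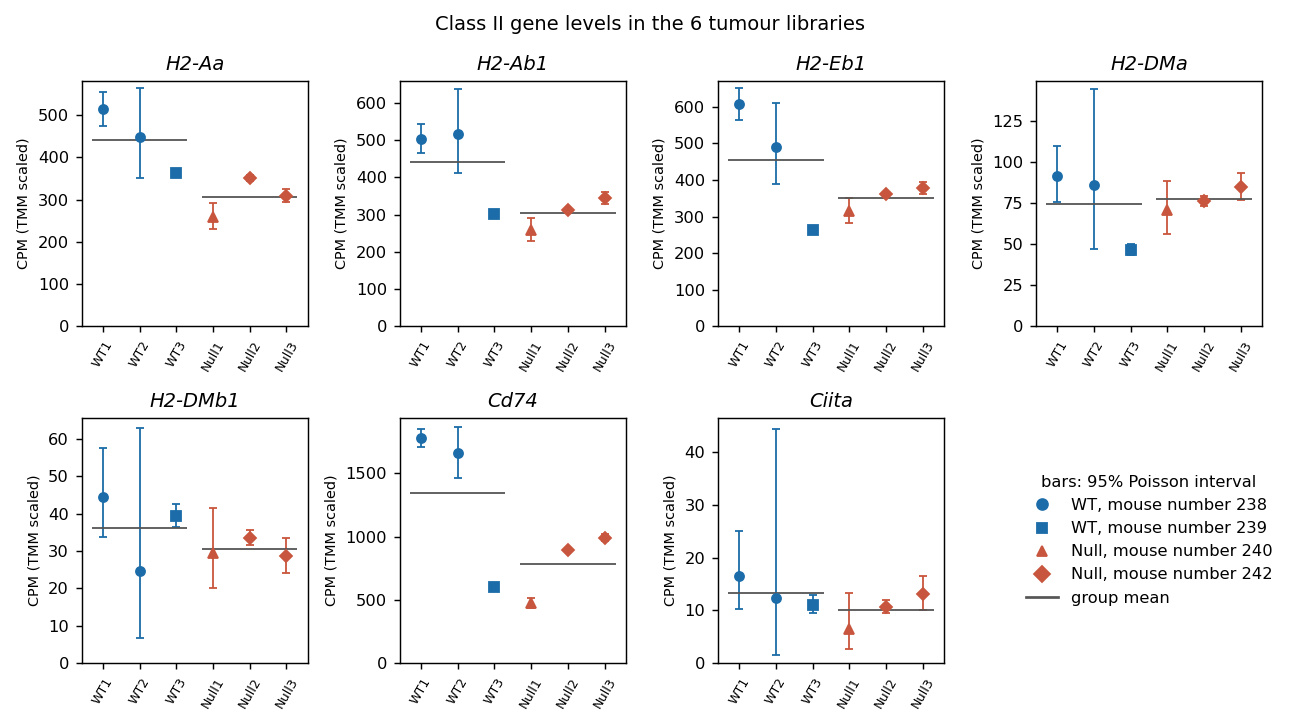
Level of each of the 7 class II genes in CPM (linear axis from 0) in the 6 libraries, with the 95% exact Poisson interval of each value as bars and the group mean as a line; marker shape gives the mouse number. Cd74 stood at 1779 and 1659 CPM in the 2 WT libraries of mouse number 238 and between 473 and 989 CPM in the other 4.

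The libraries of mouse number 238 held the 2 highest values for 5 of the 7 members (H2-Aa, H2-Ab1, H2-Eb1, H2-DMa and Cd74). That order, chosen after the values were seen, held for 9.74% of all tested genes. For H2-DMa it rests on 86.0 CPM in WT library 2 (14 reads) against 84.8 CPM in Null library 3, within counting error. Null library 1 was lowest for 4 members (H2-Aa, H2-Ab1, Cd74 and Ciita), as for 24% of all tested genes. Left without both libraries of mouse number 238, an alternative also chosen after the values were seen, 1 WT library stood against 3 Null libraries. The log2 fold changes were then -0.21 for H2-Aa, 0.04 for H2-Ab1, 0.44 for H2-Eb1, 0.77 for H2-DMa, -0.32 for H2-DMb1, 0.43 for Cd74 and -0.02 for Ciita. None was called (lowest edgeR adjusted p = 0.0699, for H2-DMa), where 18.8% of all genes tested in that fit were. That fit takes the lone WT library to vary like the Null group. The sign for H2-Ab1, H2-Eb1 and Cd74 thus depended on the pair of libraries that share a mouse number.

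**Figure D2:**
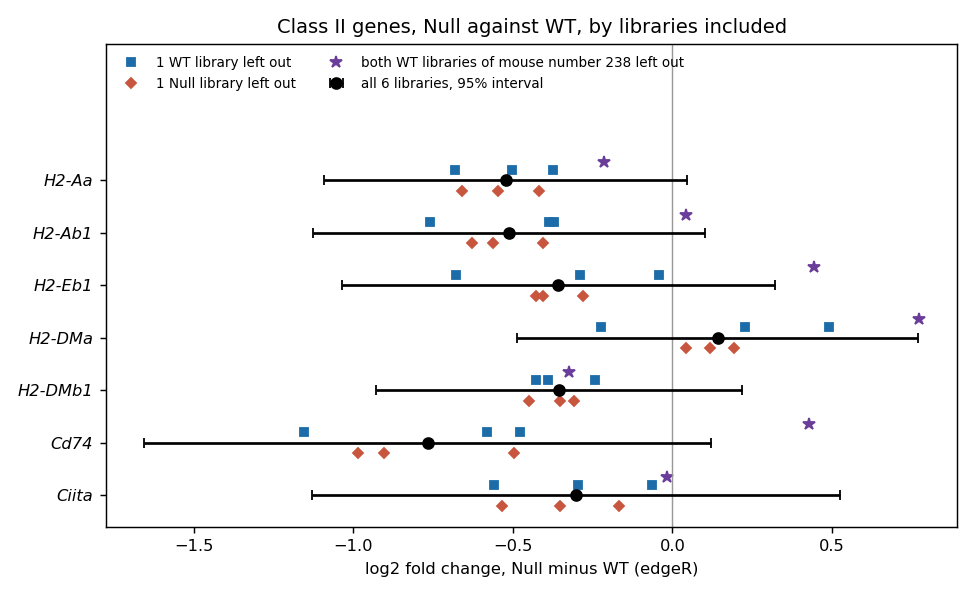
Log2 fold change, Null minus WT, of the 7 genes with all 6 libraries (black, 95% interval), with 1 library left out (blue squares for WT, red diamonds for Null) and with both WT libraries of mouse number 238 left out (purple stars). Every interval over 6 libraries includes 0, and the star of Cd74 lies at 0.43 against -0.77 with all libraries.

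Levels of different genes were compared per length, as CPM per kilobase of annotated exon (RPKM). In WT tumours the order was Cd74 (801 ± 387), H2-Eb1 (234 ± 89.6), H2-Ab1 (172 ± 46.6), H2-Aa (116 ± 19.9), H2-DMa (21.6 ± 7.11), H2-DMb1 (21.5 ± 6.15) and Ciita (1.39 ± 0.294) in RPKM (SD, n = 3). Null tumours had the same order, from Cd74 (468 ± 164) through H2-Eb1 (181 ± 16.8), H2-Ab1 (119 ± 17.0), H2-Aa (80.6 ± 12.1), H2-DMa (22.4 ± 2.03) and H2-DMb1 (18.1 ± 1.56) to Ciita (1.05 ± 0.347). In WT tumours H2-DMa and H2-DMb1 differed by less than their spread, as did H2-Eb1 from H2-Ab1. Exon lengths join all annotated transcripts (9535 bases for Ciita, 3448 for H2-DMa), which lowers genes with long alternative exons.

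The mix of class II RNA within a library does not depend on scaling. WT library 3 held the extreme shares of H2-Eb1 and H2-Aa within the 3 chains, and of H2-DMa within the H2-DM reads. Null library 1 held the lowest share of Cd74 within Cd74 and the 3 chains. Cd74 made up 52.3%, 53.3% and 39.2% of the reads of Cd74 and the 3 chains in WT libraries 1 to 3, against 36.2%, 46.6% and 49.0% in the Null libraries. The exact binomial 95% intervals were 50.8 to 53.8% and 48.8 to 57.7% in WT libraries 1 and 2, 38.6 to 39.8% in WT library 3 and 33.7 to 38.8% in Null library 1. These intervals cover counting error only, and the groups overlapped. Within the 3 chains, H2-Eb1 took 28.4% of the reads in WT library 3 (27.7 to 29.1%) and 33.8% to 37.9% in the other 5 libraries, although the interval of WT library 2 (27.8 to 40.2%) includes the value of WT library 3. H2-Aa took 39.0% in WT library 3 (38.3 to 39.8%) and 30.0% to 34.2% elsewhere. H2-Ab1, at 32.6% in WT library 3, lay within the range of the other 5 (30.5% to 35.4%). H2-DMa took 54.2% of the H2-DM reads in WT library 3 (51.5 to 56.8%) and 67.2% to 77.8% elsewhere, although the 18 H2-DM reads of WT library 2 leave 52.4 to 93.6%. The ratio of H2-DMa to the 3 chains was 0.0563, 0.0591 and 0.04997 in WT and 0.0853, 0.0745 and 0.0822 in Null tumours. These groups did not overlap, but 29% of all tested genes had a ratio to the 3 chains that was higher in every Null library, so this is near the background.

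Set against genes of the cells that can carry class II, the picture changed with the genes chosen for the comparison. Ptprc, the CD45 gene of leukocytes, itself stood at 89.8, 79.9 and 181 CPM in WT and at 131, 144 and 118 CPM in Null tumours. Per unit of Ptprc the 3 chains came to 18.1, 18.2 and 5.14 in WT libraries 1 to 3, against 6.36, 7.13 and 8.71 in the Null libraries. The pair of mouse number 238, where Ptprc was lowest, was over 2 times as high as any other library, and WT library 3, where Ptprc was highest, was the lowest. The Ptprc value of WT library 2 rests on 13 reads. Coro1a, an actin regulator of leukocytes, gave another order, with the 3 chains at 5.36, 4.84 and 5.32 per unit in WT and at 2.72, 4.58 and 3.70 in Null tumours. Against Tyrobp, Fcer1g, Cd52 or Cd53 the chains were also higher in every WT library, while against Laptm5, as against Ptprc, the groups overlapped. The share of all genes that separate so was not counted for these ratios. Some of these denominators differed by themselves. Fcer1g (125 to 185 CPM in WT, 187 to 224 CPM in Null) and Cd53 (56.2 to 79.9 and 83.6 to 106 CPM) were higher in every Null library. Laptm5 was lower in every Null library (473 to 780 and 166 to 443 CPM). For Coro1a, Tyrobp and Cd52 the groups overlapped, and 30.5% of all tested genes did not overlap. Against the sum of 7 leukocyte markers the chains stood at 1.13, 1.01 and 0.663 in WT and at 0.619, 0.738 and 0.645 in Null tumours, with WT library 3 among the Null values. Cd74 per Ptprc again set the pair apart, with 19.8 and 20.8 in that pair and 3.31 to 8.35 elsewhere. Against the summed CPM of 12 macrophage markers, the 3 chains stood at 0.238, 0.213 and 0.247 in WT and at 0.107, 0.163 and 0.134 in Null tumours, with no overlap; so did 17.7% of all tested genes over the same sum, with Null lower. Lyz2, the lysozyme of myeloid cells, took 13.7% to 32% of that macrophage sum in WT and 35.1% to 54.8% in Null libraries. Without Lyz2, a change made after the values were seen, the ratios were 0.314, 0.313 and 0.287 in WT and 0.237, 0.251 and 0.230 in Null tumours, still with no overlap, as for 8.74% of all tested genes. Cd74 over all 12 macrophage markers stood at 0.261, 0.242 and 0.159 in WT and at 0.0610, 0.142 and 0.128 in Null tumours, with no overlap. Without Lyz2 the Cd74 ratios overlapped, at 0.344, 0.356 and 0.184 in WT and 0.135, 0.219 and 0.221 in Null tumours. Sums and ratios over the members are given without a test.

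**Figure D3:**
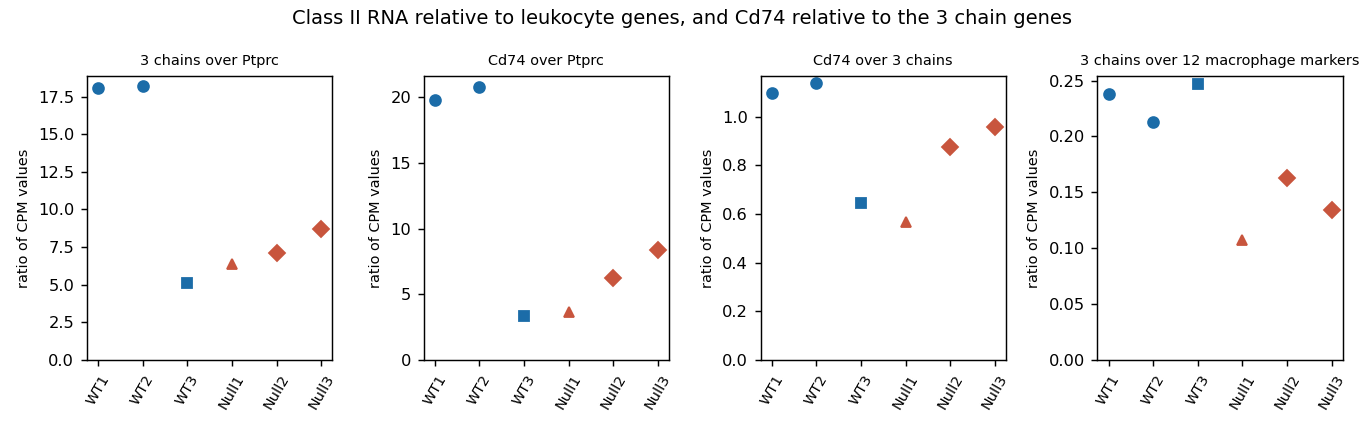
Ratios of CPM values in the 6 libraries (linear axes from 0, markers as in the plot of levels by library): the summed 3 chains and Cd74 over Ptprc, Cd74 over the 3 chains, and the 3 chains over 12 macrophage markers. The first and second panels separate the 2 libraries of mouse number 238 from the other 4, while the last separates WT (0.213 to 0.247) from Null (0.107 to 0.163), as it does for 17.7% of all tested genes.

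Among markers of the cells that carry class II, only dendritic cell markers passed the test, where 5.79% of all tested genes passed. Of 12 macrophage markers 0 rose and 0 fell (median log2 fold change 0.00), and their summed level was 3764 to 6850 CPM in WT and 6299 to 7752 CPM in Null tumours. Lyz2 had the largest value (1.17, edgeR adjusted p = 0.137). Of 10 tested dendritic cell markers 1 rose and 1 fell (median 0.15), where 2.26% of all tested genes rose and 3.52% fell. Itgax, the integrin CD11c, fell by 1.76 on the log2 scale (SE 0.33, edgeR adjusted p = 0.0111), from 32.8, 24.6 and 45.2 to 6.45, 13.5 and 10.8 CPM, a call lost without WT library 3 (0.0680). Ccr7, a receptor of migrating dendritic cells, rose just past the threshold, from 6.25, 6.14 and 5.24 to 11.98, 16.2 and 14.8 CPM (1.39, edgeR adjusted p = 0.04998), and no fit with 1 library left out called it (0.0548 to 0.205). These values rest on few reads: Ccr7 had 8, 1 and 84 in WT and 13, 511 and 75 in Null libraries. Itgax had 4 reads in WT library 2 and 7 in Null library 1. The markers of conventional type 1 dendritic cells, Xcr1 (0.42) and Clec9a (0.26), did not pass. Batf3, a factor these cells need, also missed the threshold, with a value below 0 (-1.41, edgeR adjusted p = 0.131), at 11.7, 6.14 and 14.5 CPM in WT and 0, 6.12 and 5.31 CPM in Null tumours. The Batf3 value of WT library 2 is 1 read. Of 7 general leukocyte markers 0 passed (median 0.18; 1344 to 1598 CPM summed over all libraries). None of the 7 T cell markers reached the expression filter.

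Defining markers of B cells and Langerhans cells had few reads. Ms4a1, a defining B cell gene, had 0 reads in all WT libraries and 0, 11 and 6 reads in Null libraries 1 to 3. The 7 B cell markers summed to 16.7 to 36.9 CPM in WT and 15.7 to 23.2 CPM in Null tumours, and Cd79b (-0.80) and Cd22 (-0.07), the 2 that were tested, did not pass. Cd207, the langerin of Langerhans cells, had 0, 0 and 31 reads in WT and 14, 82 and 15 reads in Null libraries. The 4 Langerhans cell markers summed to 264 to 422 CPM in WT and 257 to 293 CPM in Null tumours, nearly all of it Mfge8 (243 to 415 CPM), a secreted protein that many other cells make. A level of 3 reads corresponds to 18.4 CPM in WT library 2 and 2.34 CPM in WT library 1, so zeros in these libraries do not show absence. In WT library 3 it corresponds to 0.187 CPM. The 0 reads of Ms4a1 there stand beside 0, 0.349 and 1.18 CPM in Null libraries 1 to 3, a difference that was not tested.

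Among the other class II loci none was called. H2-DMb2, the close copy of H2-DMb1 whose shared reads may be split or dropped, stood at 39.0, 12.3 and 21.5 CPM in WT and at 13.8, 19.9 and 24.99 CPM in Null tumours (log2 fold change -0.41, edgeR adjusted p = 0.5003). H2-Ob, the beta chain of the H2-DM inhibitor H2-O, had 3, 0 and 75 reads in WT and 3, 100 and 20 in Null libraries (-0.15, edgeR adjusted p = 0.890). Its partner H2-Oa, known from B cells and some dendritic cells, had 0, 0 and 1 read in WT and 3, 31 and 7 reads in Null libraries, under the filter on low counts. Over pooled reads the ratio of Null to WT was 19.0 (95% exact interval 3.22 to 768, counting error only), and with no filter the gene was not called (edgeR adjusted p = 0.0810). That ratio rests on the depth of WT library 3. Without it, WT reads of H2-Oa are 0, and a floor of 3 reads over the remaining group is 2.08 CPM, above the pooled Null level of 1.09 CPM. H2-Eb2 had 0 to 3 reads in each library.

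The factors that bring Ciita to class II promoters, and the proteases that process the invariant chain, were all tested and none was called. The 7 promoter factors had log2 fold changes from -0.57 (Nfyc) to 0.48 (Rfxap), with a median of -0.08. Rfx5, the DNA-binding subunit of regulatory factor X, stood at 14.8, 12.3 and 12.9 CPM in WT and at 3.69, 11.6 and 11.02 CPM in Null tumours, a difference that did not pass (-0.48, edgeR adjusted p = 0.484). Of the 7 processing genes 6 had values above 0, with a median of 0.24 and a highest value of 0.53 for Ctsb (edgeR adjusted p = 0.314). Ctss, cathepsin S, which makes the late cuts in the invariant chain, stood at 446, 405 and 181 CPM in WT and at 275, 359 and 399 CPM in Null tumours (0.03, 95% interval -0.70 to 0.76). As for H2-Eb1, but not H2-Aa or H2-Ab1, WT library 3 was the lowest of all libraries, and WT libraries 1 and 2 were the highest. Ifi30, the lysosomal thiol reductase GILT, also had WT library 3 lowest and that pair highest. It stood at 196, 203 and 78.0 CPM in WT and at 133, 145 and 156 CPM in Null tumours (log2 fold change -0.06, edgeR adjusted p = 0.933). The ligase Marchf1, which removes class II from the surface, stood at 0.41 (edgeR adjusted p = 0.549).

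Genes of the interferon gamma route gave no call either. Ifng itself had 1, 0 and 4 reads in WT and 0, 7 and 4 reads in Null libraries. Of 11 tested genes 0 passed, with a median log2 fold change of 0.20. Irf1, a factor that acts on Ciita, stood at -0.24 (95% interval -0.77 to 0.28). The highest was Irgm2, an interferon-induced GTPase (0.80, edgeR adjusted p = 0.155). Among 7 tested genes of T cell contact, 0 passed: Cd4, the coreceptor for class II, stood at -0.17, Lag3, an inhibitory class II receptor, at -0.70 (edgeR adjusted p = 0.385), and the costimulators Cd86 and Cd40 at -0.05 and 0.39.

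**Figure D4:**
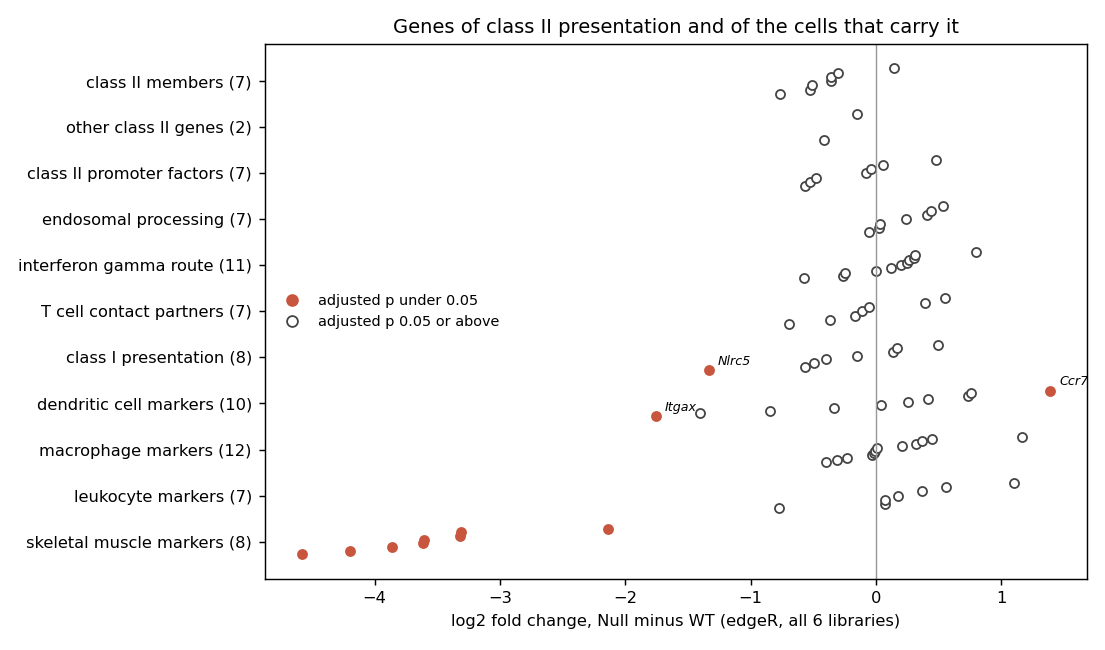
Log2 fold change, Null minus WT, of every tested gene in each list (number in brackets); filled points have an edgeR adjusted p under 0.05. No gene of the class II, promoter factor, processing or interferon gamma lists is filled, while Nlrc5, Itgax, Ccr7 and all 8 skeletal muscle markers are among the filled points.

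The class I presentation genes served as the nearest comparison. Of 8 tested, 0 rose and 1 fell, where 2.26% of all tested genes rose and 3.52% fell. The median log2 fold change of the 8 was -0.27. The one that fell was Nlrc5, the class I counterpart of Ciita, at 32.8, 24.6 and 78.0 CPM in WT and 16.6, 22.5 and 21.8 CPM in Null tumours (log2 fold change -1.33, SE 0.35, edgeR adjusted p = 0.0445). Its call was lost without WT library 3 (-0.58, edgeR adjusted p = 0.371) and without Null library 1, 2 or 3 (0.0761 to 0.165), and in DESeq2 (adjusted p = 0.0579). Whether Nlrc5 and Ciita (-0.30) differ in their response was not tested. H2-K1 (-0.40) and H2-D1 (0.17), class I heavy chains, and B2m (0.14), their light chain, did not pass.

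The genes whose pattern over the 6 libraries was most like the mean of 6 members (Ciita was too low to enter) were Pea15a, Ctnna1, Nudt18, Ptprj and Rcn3. Pearson's r on log2 CPM was 0.989, 0.985, 0.982, 0.980 and 0.980, among 6578 genes outside the fixed lists. The 6 libraries share mouse numbers and differ in depth, so these values are descriptions. Pea15a, a small death-effector domain protein, stood at 312, 283 and 216 CPM in WT and at 196, 234 and 249 CPM in Null tumours, highest in the pair of mouse number 238 and lowest in Null library 1. Ptprj, a receptor tyrosine phosphatase, had the same order (136, 117 and 91.4 against 81.1, 104 and 106 CPM). None of the 5 was called between Null and WT (lowest edgeR adjusted p = 0.211, for Rcn3).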

How the data were processed

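The authors deposited raw read counts per Ensembl gene, 1 file per library, with 5 closing lines for reads in no single gene. These (4.63% to 12.0% in no feature, 32.9% to 39.99% at several places, 1.72% to 2.11% ambiguous) stayed out of library sizes. Per the submitters' processing notes, TopHat2, Cuffdiff, DESeq2 and mm9 were used; for their roles, the counter, its strand setting and the annotation no source used here gives an answer. Symbols matched 32919 of 37991 identifiers (86.6%) through GENCODE M21, a later build, which also gave exon lengths. Null was compared with WT over all 6 libraries in R 4.3.3 with edgeR 4.0.16 (quasi-likelihood, robust, TMM, default expression filter, Benjamini-Hochberg at 0.05). Each SE was the absolute log2 fold change over the root of its F. Alternatives used DESeq2 1.42.0, limma 3.58.1, other scalings and filters, left-out libraries and summed pairs. The fit was also run on simulated data with independent libraries and changes larger than those of the members. That run therefore does not bear on the results for the members. For single values an exact test of 3 against 3 cannot go below p = 0.1. The members and gene lists were chosen with earlier results of these data known. Named genes were the 7 members, list genes past the threshold, others by role (those given as the highest or lowest of a list, and Ms4a1, Cd207 and H2-Oa, were picked after their values were seen), and the 5 genes most like the members (average log2 CPM of at least 5, prior count 3). Gbp5 and Psmb9 matched no identifier. Adipocyte markers summed to 97.1 to 251 CPM in WT and 43.5 to 94.0 CPM in Null (3 of 4 tested fell: Cfd, Lpl and Car3); Langerhans markers gave 0 calls of 2 tested.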

Additional observations from a re-analysis of the deposited data

How the results depend on the processing

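The 7 members kept their direction and stayed uncalled under every alternative scaling, filter, edgeR option and tool and when libraries with one mouse number were summed or that number entered as a random effect; the exceptions came from left-out libraries. With 1 library left out, 0 to 1 members were called, Cd74 ran from -1.15 to -0.48 and H2-DMa from -0.225 to 0.49 on the log2 scale. The call was Cd74 in the fit whose WT group was only the pair of mouse number 238. Without both WT libraries of mouse number 238 (chosen after seeing the data), H2-Ab1 stood at 0.043, H2-Eb1 at 0.44 and Cd74 at 0.43; called genes were then 2776 in all, 1522 higher and 1254 lower, and 25 in the related lists, against 688, 269, 419 and 15. With 1 library left out these counts were 179 to 855, 59 to 421, 120 to 434 and 9 to 13. Of the 15 calls in the related lists over all 6 libraries, 8 were skeletal muscle and 3 adipocyte markers. The rest were Nlrc5, Itgax, Ccr7 and Krt14. Genes called higher were 165 with the WT pair summed and 533 in limma-voom. The cause of these shifts was not tested. Spearman's rho in place of Pearson's r kept 2 of the 5 genes most like the members. No paired analysis was possible because the labels number no replicates (numbers here follow accession order) and the groups share no mouse number. Ciita, H2-DMa, H2-DMb1, H2-Oa and other genes of low level are limited by the depth of WT library 2. Among the named calls, Nlrc5 and Itgax had 4 reads there, Krt14 had 6 and Ccr7 had 1.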
